A study of Mus musculus with 18 samples.

Results

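The transcripts described here were those of 46 mouse genes of ribosome biogenesis and RNA polymerase I (Pol I), chosen by name from what their proteins do. They were matched by Ensembl identifier to 46 of the 48023 genes in the count table. These members and the further gene lists below were chosen with earlier results of these data known. They comprised 6 genes of Pol I transcription, 7 of the small nucleolar ribonucleoproteins (snoRNPs), 15 of the small subunit processome and 40S assembly, 15 of 60S assembly, and 3 abundant nucleolar proteins. All 46 were abundant enough to be tested, and the lowest count of any of them in any library was 280. The question was how the mRNAs of this pathway changed when brown preadipocytes, the precursors of brown fat cells, were exposed to FGF6, a paracrine fibroblast growth factor. The cells were 1 immortalized murine line kept as preadipocytes, given either vehicle or FGF6 at 200 ng/ml, and RNA was taken after 4, 8, or 24 h of treatment. Each of the 6 groups held 3 libraries, and no group was taken before treatment, so every FGF6 group was set against the vehicle group of the same hour. Strain, sex, and age of the source animal are not given in the sources used here.

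Making a ribosome begins in the nucleolus, where Pol I transcribes the long precursor of the ribosomal RNAs. SnoRNPs modify that precursor, the small subunit processome folds and cleaves it, and separate sets of helicases, scaffolds, and GTPases assemble the small and large subunits before export. The pathway takes a large share of the energy of a growing cell, and growth factor signaling and MYC are known to raise the expression of its genes.

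Because MYC and ETS factors are known to act downstream of growth factors, the promoters of the members were searched for their elements. RefSeq promoter windows of 300 bases (250 before the start and 50 after it, GRCm38.p6) were at hand for 40 members in 49 windows, and not for Bop1, Fbl, Npm1, Rrp12, Rrs1, and Tcof1. The E-box CACGTG, the element bound by MYC and MAX, reads the same on both strands and was found in 7 of the 40 members (17.5%), against 11.6% of the 10683 genes tested that had a window and 8.09% of all 27025 genes with one. The ETS core CCGGAAG, searched also as CTTCCGG on the other strand, cannot overlap an E-box and was in 15 of 40 (37.5%), against 19.4% of genes tested and 9.93% of all genes. The CCAAT box (CCAAT or ATTGG) was in 37.5% of members and 42.8% of genes tested, and the GC box (GGGCGG or CCGCCC) in 77.5% and 67.7%. These are matches of letters, not measured binding, and no test was run on them. Stretches of 30 bases around a match, with the motif in capitals, are printed for members from several steps of the pathway. Of several matches with room for 30 bases, those after the start were taken before others, and then the nearest to it. The E-box stretches belong to Nop2 (chr6:125131811-125131840, plus strand, first base of the motif 60 bases before the start), Imp4 (chr1:34439696-34439725, plus strand, first base of the motif 121 bases before the start), Wdr43 (chr17:71616220-71616249, plus strand, first base of the motif 17 bases after the start), and Pes1 (chr11:3963965-3963994, plus strand, first base of the motif 2 bases after the start).
Nop2: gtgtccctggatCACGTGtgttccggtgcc
Imp4: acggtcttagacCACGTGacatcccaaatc
Wdr43: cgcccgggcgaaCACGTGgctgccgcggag
Pes1: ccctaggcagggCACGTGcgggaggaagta
The ETS stretches belong to Nhp2 (chr11:51619738-51619767, plus strand, first base of the motif 23 bases before the start), Heatr1 (chr13:12395347-12395376, plus strand, first base of the motif 16 bases before the start), Polr1c (chr17:46248070-46248099, minus strand, first base of the motif 42 bases before the start), and Polr1e (chr4:45018622-45018651, plus strand, first base of the motif 25 bases after the start).
Nhp2: ccacttgaaaacCCGGAAGtgatgtcggag
Heatr1: cgtagtgagaagCCGGAAGttcctatgagg
Polr1c: cccacttgacgtCCGGAAGtgaaggacgtg
Polr1e: cctagaatgtcaCTTCCGGtttttgagtcc
The median log2 fold change with FGF6 was 0.77 in the 7 members with an E-box and 0.69 in the 33 without at 4 h, 0.89 and 1.08 at 8 h, and 0.92 and 0.96 at 24 h. The ranges overlapped at each time, from 0.39 to 0.96 and 0.048 to 1.19 at 4 h, from 0.69 to 1.499 and 0.15 to 1.70 at 8 h, and from 0.66 to 1.37 and 0.007 to 1.48 at 24 h. This split was not tested, none was made for the ETS core, and E-boxes beyond the windows were not searched.

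Library totals ran from 24327816 to 33471980 counts. Each of the 18 libraries lay nearest to the mean profile of its own group, computed without that library. The cells carried 7 of 8 preadipocyte and mesenchymal markers, with Dlk1 at 0 counts, and these summed to 5019 to 8059 CPM (counts per 1000000 of the scaled library total). With FGF6, 5 of the 7 were called lower at each hour, Vim was called higher at each hour, and Cd34 was called higher at 8 and 24 h (log2 fold changes of 0.46 and 1.38, edgeR). Their sums were 5391 to 5644 CPM with vehicle and 5019 to 5302 with FGF6 at 4 h, 6669 to 7025 and 6008 to 6280 at 8 h, and 7641 to 8059 and 5872 to 6211 at 24 h. Mature adipocyte markers (Lep at 0 counts, Retn at no more than 11) summed to 102 to 107 and 89.2 to 97.7 CPM at 4 h, 96.5 to 99.7 and 68.5 to 72.6 at 8 h, and 156 to 178 and 63.4 to 70.1 at 24 h, in the same order, nearly all of it Fabp4. Of the 4 of these tested, 2 were called lower with FGF6 at 4 h and 4 at 8 and 24 h. Markers of leukocytes, endothelium, epithelium, and muscle summed to 7.23 to 19.95 CPM, with no more than 2 counts of Ptprc, 7 of Pecam1, 5 of Epcam, 4 of Krt5, and 9 of Ckm in any library, the rest being Cd68, Myod1, and Cdh5. These moved with FGF6 too (edgeR). Cdh5 was called higher at each hour, from under 0.1 CPM with vehicle to 0.601, 0.951, and 3.59 CPM. Cd68 was higher at 4 and 8 h and lower at 24 h (log2 fold changes of 0.576, 0.265, and -0.845), and Myod1 was lower at 4 and 24 h (-0.55 and -0.854). One library stood apart. In vehicle replicate 3 at 24 h, Lars2, which holds a ribosomal RNA-like repeat, was at 2445 CPM against 144 to 208 in the other 17, and its chi-square per degree of freedom against the other replicates was 38.1 and 41.5, where all other pairs of replicates had 2.44 to 7.66, so the 24 h results are also given without it. The part of these differences in the results was not tested. In RNA from whole cultures, fewer cells of a kind and less of an RNA per cell cannot be told apart, and the labels do not say that the 3 libraries of a group came from separate cultures, so p-values measure the spread between these libraries only.

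All 46 genes were expressed in vehicle-treated cells, at levels that differed widely. Per kilobase of annotated exon, the highest at 4 h with vehicle were Ncl at 108 ± 2.31 and Npm1 at 107 ± 4.43 CPM per kilobase (RPKM, SD, n = 3), the mRNAs of nucleolin and nucleophosmin, which did not differ beyond their spread. Nolc1, the snoRNP chaperone, followed at 84.3 ± 1.03, ahead of the RNA helicase gene Ddx21 at 78.5 ± 0.82, the rRNA methyltransferase gene Nop2 at 78.4 ± 0.77, and the H/ACA snoRNP gene Nhp2 at 78.3 ± 1.15, which did not differ beyond their spread. The lowest were Fbl at 3.47 ± 0.28, Wdr12 at 3.86 ± 0.12, and Polr1e at 6.61 ± 0.11 RPKM. These levels rest on the union of annotated exons and on the read assignment the authors used. Of each member's 50-base stretches, over 10% also occurred in transcripts of other genes for 7 members (Ddx18 55.9%, Npm1 24.3%, Pes1 23.3%, Fbl 19.7%, Noc2l 19.2%, Nop56 18.6%, and Mrto4 12.3%), and under 1% for 27. How reads that fit several genes were counted is not given in the sources used here, so the levels of those 7 are uncertain. Another 21 annotated small nucleolar RNAs lie within 7 members (Nop56, Nop58, Dkc1, Wdr43, Gnl3, Ppan, and Ncl).

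FGF6 raised the mRNAs of the pathway almost without exception at every hour tested. At 4 h 45 of 46 members were called higher and 0 lower (edgeR, adjusted p below 0.05), where 28.6% of all 15071 genes tested were called higher and 34.2% lower. At 8 h all 46 were higher against a background of 32.4%, and at 24 h 45 were higher against 35.9%. The member not called at 4 and 24 h was Ubtf, which encodes the upstream binding factor that loads Pol I onto ribosomal DNA. The median log2 fold change of the members was 0.68 at 4 h, 1.07 at 8 h, and 0.94 at 24 h, while the median of all genes was -0.048, -0.050, and -0.022. It ranged from 0.048 to 1.19 at 4 h, from 0.15 to 1.76 at 8 h, and from 0.007 to 1.48 at 24 h. Increases of at least 1.5-fold were called for 33, 44, and 42 members at the successive hours, and for 9.70%, 13.8%, and 15.3% of all genes. The 3 FGF6 libraries lay wholly above the 3 vehicle libraries in 45, 46, and 45 members, again with Ubtf as the exception at 4 and 24 h, and in 30.1%, 34.2%, and 36.7% of all genes. Without vehicle replicate 3 at 24 h the 24 h count was again 45 and the median 0.97.

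**Figure D1:**
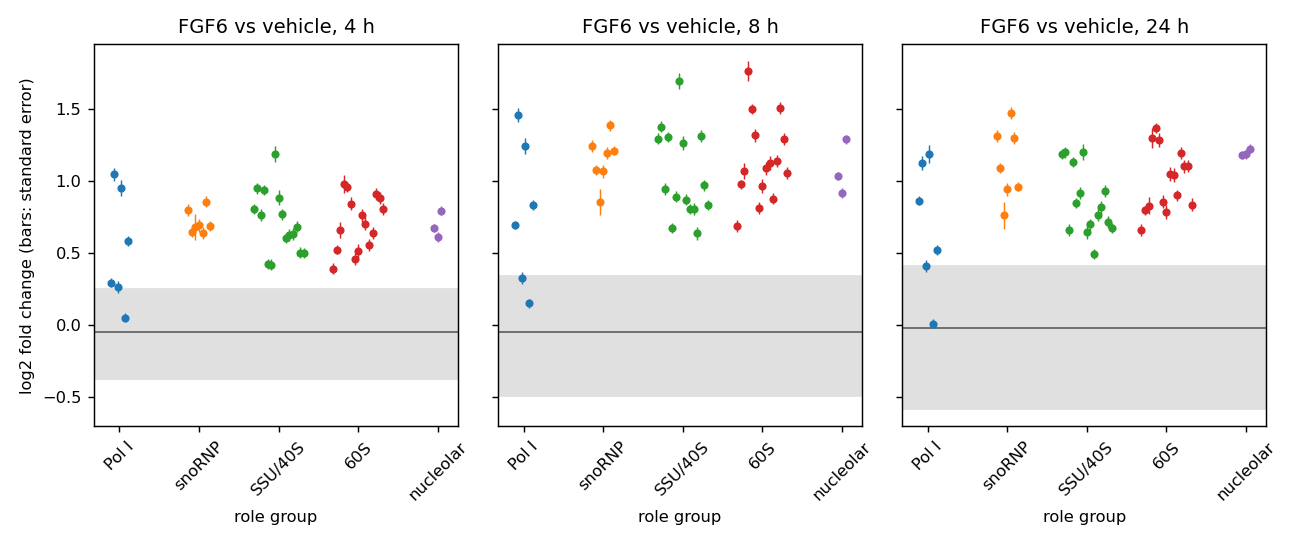
Log2 fold change of FGF6 against vehicle for each member (points, with standard error bars), by role group on the x axis and in 1 panel per hour, over the median (line) and the middle 50% (gray band) of all 15071 genes tested. All points outside the Pol I group lay above the band, and the median of the 46 was 0.68 at 4 h, 1.07 at 8 h, and 0.94 at 24 h.

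The sum of all 46 members gives 1 number per library, weighted toward the most abundant mRNAs. Ncl alone averaged 1102 CPM with vehicle and 1760 CPM with FGF6 at 4 h. With vehicle the sum was 6554 ± 72.5 CPM at 4 h, 4971 ± 80.2 at 8 h, and 4333 ± 69.9 at 24 h (SD, n = 3). With FGF6 it was 10372 ± 197.5, 10329 ± 56.1, and 8741 ± 194 CPM at the same hours. FGF6 libraries therefore held 1.58, 2.08, and 2.02 times the vehicle value. No FGF6 library overlapped a vehicle library of its hour, and each exact permutation p (two-sided) was 0.1, the smallest that 3 against 3 allows. Since nearly all members were already apart by library, this outcome was all but given in advance and is not separate evidence.

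**Figure D2:**
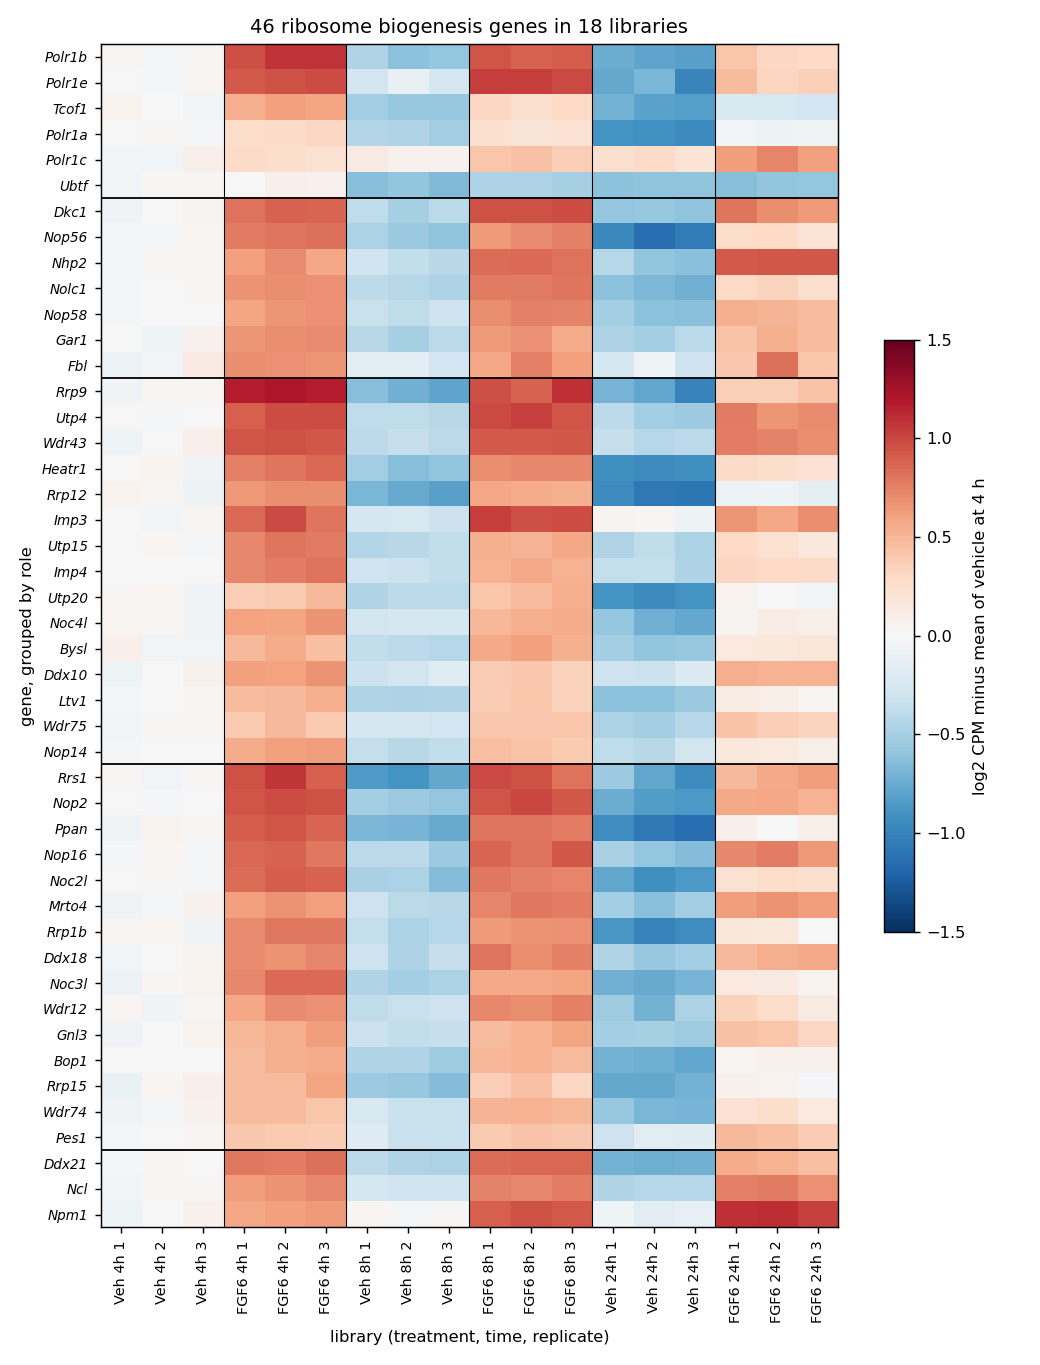
Log2 CPM of each of the 46 genes (rows, grouped by role) in each of the 18 libraries (columns), relative to the mean of the gene in vehicle at 4 h, from blue (lower) to red (higher). By group mean, 46, 45, and 42 genes lay above vehicle at 4 h with FGF6 at 4, 8, and 24 h, against 2 and 1 with vehicle at 8 and 24 h. At 24 h many FGF6 columns are pale, those of Polr1a, Tcof1, Rrp12, and Ubtf are below 0, and Ubtf looks alike in both arms.

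Among the 6 Pol I genes, 5 were called higher at 4 h, 6 at 8 h, and 5 at 24 h, with medians of 0.44, 0.76, and 0.69 on the log2 scale, the lowest of the 5 role groups. Polr1a (chr6:71909053-71984935, plus strand) encodes the largest subunit of Pol I. Polr1a was at 275, 276 and 270.2 CPM in the vehicle libraries and 333, 334 and 339.7 in the FGF6 libraries at 4 h. At 8 h Polr1a stood at 202, 199.5 and 191 CPM with vehicle and 324, 314 and 322 with FGF6. By 24 h the Polr1a values were 147, 146 and 142 CPM with vehicle and 267, 259.7 and 264 with FGF6. All FGF6 values lay above all vehicle values, and both arms were lower at the later hours. Its log2 fold change was 0.29 ± 0.03 at 4 h, 0.69 ± 0.03 at 8 h and 0.86 ± 0.03 at 24 h (SE, edgeR, largest adjusted p = 3.94e-09). Polr1b (chr2:129100995-129126594, plus strand) encodes the second largest subunit, which forms the active site with Polr1a. The 4 h libraries held 55.03, 53.3 and 55.1 CPM of Polr1b with vehicle and 106, 116 and 116 with FGF6. In the 8 h libraries Polr1b was at 39.8, 35.5 and 36.4 CPM with vehicle and 105, 101 and 102 with FGF6. In the 24 h libraries Polr1b was at 32.5, 31.4 and 31.1 CPM and 72.6, 67.5 and 66.9, in the same order. The FGF6 libraries were far above their vehicle libraries throughout, with no overlap. The log2 difference for Polr1b was 1.05 ± 0.045 at 4 h, 1.46 ± 0.046 at 8 h and 1.12 ± 0.048 at 24 h (SE, edgeR, largest adjusted p = 1.83e-16). Ubtf (chr11:102304560-102319742, minus strand) behaved differently. For Ubtf, vehicle gave 299, 314 and 311 CPM and FGF6 308, 325 and 322 at 4 h. With vehicle and FGF6, Ubtf at 8 h was at 198, 204 and 195 CPM and 223, 223 and 218. At 24 h, Ubtf was at 200.5, 202 and 202 CPM with vehicle and 198, 204 and 207 with FGF6. The groups overlapped at 4 and 24 h and were apart by a small margin at 8 h. Its log2 fold change with FGF6 was 0.048 ± 0.031 at 4 h (SE, edgeR, adjusted p = 0.191), 0.15 ± 0.032 at 8 h (adjusted p = 0.000166), and 0.007 ± 0.032 at 24 h (adjusted p = 0.844). At 4 h the sign turned with the scaling, to -0.054 with library sizes alone and -0.00911 with upper-quartile factors. DESeq2 called Ubtf higher at 4 h, at a log2 fold change of 0.071 (adjusted p = 0.0362). Over all processing alternatives the value ran from -0.054 to 0.11 at 4 h and from -0.00714 to 0.11 at 24 h, where the offset for GC content and length also called it higher. Over time Ubtf moved in both arms, by -0.63 ± 0.032 with vehicle and -0.53 ± 0.032 with FGF6 from 4 to 8 h (edgeR, adjusted p = 4.14e-14 and 5.53e-13). The other members of the group were Polr1c, a subunit shared with Pol III, at log2 fold changes of 0.26, 0.32, and 0.41 at the 3 hours. Polr1e, a Pol I subunit that aids initiation and elongation, was at 0.95, 1.24, and 1.19, and Tcof1, the nucleolar protein treacle, at 0.58, 0.83, and 0.52.

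**Figure D3:**
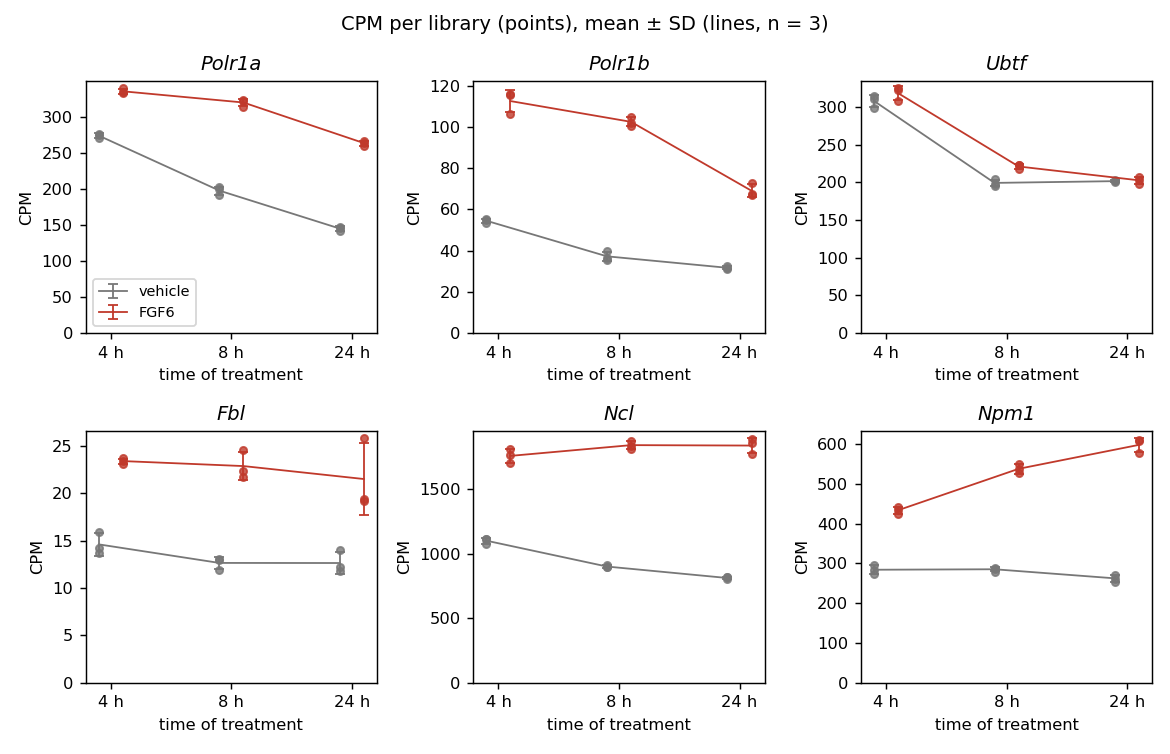
CPM of 6 members in each library (points) with mean and SD (lines and bars, n = 3) against hours of treatment, for vehicle (gray) and FGF6 (red), on linear axes from 0. Polr1a, Polr1b, Fbl, Ncl, and Npm1 are apart at all hours, whereas the arms of Ubtf fall together from 4 to 8 h.

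All 7 snoRNP genes were called higher at every hour, with medians of 0.69, 1.20, and 1.09. Box H/ACA particles guide pseudouridylation of ribosomal RNA, and box C/D particles guide its methylation. Dkc1 (chrX:75095854-75109777, plus strand) encodes dyskerin, the pseudouridine synthase of the H/ACA particle. The 4 h libraries held 120.5, 125 and 128 CPM of Dkc1 with vehicle and 219, 229 and 228 with FGF6. In the 8 h libraries Dkc1 was at 95.5, 88.5 and 93.9 CPM with vehicle and 240.5, 241 and 245 with FGF6. In the 24 h libraries Dkc1 was at 83.2, 83.9 and 82.1 CPM and 218, 202 and 194, in the same order. Levels with FGF6 stayed high at 4 and 8 h while vehicle levels were lower at each later hour. The log2 fold change of Dkc1 was 0.85 ± 0.039 at 4 h, 1.39 ± 0.039 at 8 h and 1.30 ± 0.04 at 24 h (SE, edgeR, largest adjusted p = 5.74e-16). Nhp2 (chr11:51619735-51623714, plus strand) encodes another core H/ACA protein. For Nhp2, vehicle gave 88.2, 90.4 and 90.5 CPM and FGF6 138, 146 and 134 at 4 h. With vehicle and FGF6, Nhp2 at 8 h was at 72.8, 69.2 and 67.4 CPM and 161, 161 and 158. At 24 h, Nhp2 was at 66.7, 59.4 and 58.3 CPM with vehicle and 170.3, 172 and 171 with FGF6. Its arms moved apart at each later hour. With FGF6 against vehicle, Nhp2 differed by 0.64 ± 0.041 at 4 h, 1.20 ± 0.041 at 8 h and 1.48 ± 0.042 at 24 h (SE, edgeR, largest adjusted p = 6.43e-13). Fbl (chr7:28169710-28179269, plus strand) encodes fibrillarin, the methyltransferase of the C/D particle. Fbl was at 13.7, 14.2 and 15.9 CPM in the vehicle libraries and 23.7, 23.4 and 23.1 in the FGF6 libraries at 4 h. At 8 h Fbl stood at 13.1, 12.9 and 11.9 CPM with vehicle and 21.7, 24.5 and 22.3 with FGF6. By 24 h the Fbl values were 12.2, 13.96 and 11.8 CPM with vehicle and 19.2, 25.9 and 19.4 with FGF6. The groups did not overlap, but replicate 2 of the FGF6 group at 24 h stood above its companions. On the log2 scale Fbl differed by 0.68 ± 0.091 at 4 h, 0.85 ± 0.093 at 8 h and 0.76 ± 0.095 at 24 h (SE, edgeR, largest adjusted p = 4.14e-07). Leaving out 1 library at a time gave 0.61 to 0.89 for the 24 h value. The remaining genes were Nop56 (0.80, 1.24, and 1.31 at 4, 8, and 24 h) and Nop58 (0.65, 1.08, and 1.09), the C/D scaffold pair, Gar1 (0.69, 1.07, and 0.94) of the H/ACA particle, and Nolc1 (0.69, 1.21, and 0.96).

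The 15 genes of the small subunit processome and 40S assembly were all called higher at each hour, with medians of 0.68, 0.95, and 0.82. Rrp9 (chr9:106475963-106485424, plus strand) encodes the protein that binds the processome snoRNA, the guide of early cleavage. Rrp9 was at 67.8, 71.6 and 71.8 CPM in the vehicle libraries and 159, 163 and 159 in the FGF6 libraries at 4 h. At 8 h Rrp9 stood at 45.4, 42.8 and 40.6 CPM with vehicle and 138, 129.9 and 149.8 with FGF6. By 24 h the Rrp9 values were 43.4, 40.95 and 35.2 CPM with vehicle and 90.5, 90.4 and 94.9 with FGF6. The FGF6 values were the highest at 4 h and the lowest at 24 h, and stayed clear of the vehicle values. For Rrp9 the log2 fold change was 1.19 ± 0.054 at 4 h, 1.70 ± 0.056 at 8 h and 1.20 ± 0.058 at 24 h (SE, edgeR, largest adjusted p = 8.22e-16). Imp3 (chr9:56937475-56938398, plus strand) encodes a subunit of the complex that joins this snoRNA to the precursor. The 4 h libraries held 29.4, 28.5 and 29.8 CPM of Imp3 with vehicle and 52.5, 58.2 and 51.1 with FGF6. In the 8 h libraries Imp3 was at 24.6, 24.7 and 23.4 CPM with vehicle and 59.9, 57.2 and 57.5 with FGF6. In the 24 h libraries Imp3 was at 30.1, 29.8 and 27.7 CPM and 46.1, 43.6 and 47.5, in the same order. Unlike most members, vehicle levels at 24 h were back near those at 4 h. Imp3 differed on the log2 scale by 0.89 ± 0.051 at 4 h, 1.26 ± 0.052 at 8 h and 0.65 ± 0.052 at 24 h (SE, edgeR, largest adjusted p = 2.66e-11). Utp15 (chr13:98246845-98263041, minus strand) encodes a subunit of UtpA, the first complex to bind the precursor. For Utp15, vehicle gave 65.3, 67.01 and 64.2 CPM and FGF6 108, 114 and 112 at 4 h. With vehicle and FGF6, Utp15 at 8 h was at 48.2, 49.04 and 50.9 CPM and 94.7, 93.1 and 97.9. At 24 h, Utp15 was at 47.9, 50.4 and 47.3 CPM with vehicle and 80.5, 76.9 and 73.2 with FGF6. FGF6 values fell at each later hour, yet all lay above vehicle. The Utp15 log2 fold change was 0.77 ± 0.04 at 4 h, 0.95 ± 0.041 at 8 h and 0.66 ± 0.042 at 24 h (SE, edgeR, largest adjusted p = 2.21e-13). Nop14 (chr5:34638536-34660148, minus strand) encodes a factor of 40S assembly. Nop14 was at 95.1, 97.2 and 97.2 CPM in the vehicle libraries and 142, 148 and 149 in the FGF6 libraries at 4 h. At 8 h Nop14 stood at 75.2, 72.2 and 74.5 CPM with vehicle and 132, 129.5 and 127 with FGF6. By 24 h the Nop14 values were 74.02, 72.4 and 79.5 CPM with vehicle and 108, 107 and 103 with FGF6. The arms were nearest to each other at 24 h, still with no overlap. Nop14 was higher by a log2 value of 0.60 ± 0.034 at 4 h, 0.81 ± 0.035 at 8 h and 0.49 ± 0.036 at 24 h (SE, edgeR, largest adjusted p = 3.27e-12). Of the other UtpA genes, Heatr1 was at 0.81, 1.29, and 1.19, Utp4 at 0.95, 1.38, and 1.20, Wdr43 at 0.94, 1.31, and 1.13, and Wdr75 at 0.42, 0.67, and 0.84 at the 3 hours. The rest of the group, Utp20, Imp4, Noc4l, Ddx10, Rrp12, Bysl, and Ltv1, lay between 0.42 and 0.77 at 4 h, 0.64 and 1.31 at 8 h, and 0.68 and 0.93 at 24 h. Within it Rrp12 had the highest 8 h value and Ddx10, an RNA helicase, the lowest.

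The 15 genes of 60S assembly were likewise all called higher, with medians of 0.70, 1.09, and 1.04. Rrs1 (chr1:9545408-9547455, plus strand) encodes a factor that brings the small ribosomal RNA particle into the precursor of the large subunit. For Rrs1, vehicle gave 56.1, 54.2 and 56.5 CPM and FGF6 108, 117 and 104 at 4 h. With vehicle and FGF6, Rrs1 at 8 h was at 30.7, 29.9 and 32.7 CPM and 111, 108 and 98. At 24 h, Rrs1 was at 38.2, 32.5 and 28.9 CPM with vehicle and 77.7, 82.6 and 85.8 with FGF6. It had the highest 8 h fold change of all 46 genes, and vehicle replicate 1 at 24 h stood above its companions. The Rrs1 values gave log2 fold changes of 0.98 ± 0.065 at 4 h, 1.76 ± 0.069 at 8 h and 1.30 ± 0.069 at 24 h (SE, edgeR, largest adjusted p = 1.35e-12). Without vehicle replicate 3 at 24 h the last of these was 1.26. Pes1 (chr11:3963975-3980004, plus strand) encodes the pescadillo subunit of the PeBoW complex, which acts on the large subunit precursor. Pes1 was at 82.2, 83.9 and 84.95 CPM in the vehicle libraries and 111, 109.5 and 109 in the FGF6 libraries at 4 h. At 8 h Pes1 stood at 73.2, 66.5 and 66.4 CPM with vehicle and 109.5, 113 and 110.4 with FGF6. By 24 h the Pes1 values were 67.3, 74.3 and 73.8 CPM with vehicle and 117, 114 and 109 with FGF6. FGF6 levels stayed nearly level across hours, and vehicle levels lay below them in every library. The log2 differences were smaller for Pes1, at 0.39 ± 0.041 at 4 h, 0.69 ± 0.041 at 8 h and 0.66 ± 0.041 at 24 h (SE, edgeR, largest adjusted p = 6.28e-09). Its partners in PeBoW were at 0.52, 0.98, and 0.80 (Bop1) and 0.66, 1.07, and 0.83 (Wdr12). Nop2 was at 0.96, 1.499, and 1.37, Ppan, the peter pan homolog, at 0.91, 1.51, and 1.10, and Nop16 at 0.84, 1.32, and 1.28. Gnl3, the GTPase nucleostemin, was at 0.56, 0.88, and 0.90 and the helicase gene Ddx18 at 0.70, 1.12, and 1.04. Noc2l and Noc3l, whose products escort the large subunit precursor, were at 0.88, 1.29, and 1.10 and at 0.81, 1.05, and 0.83. The remaining Wdr74, Rrp15, Rrp1b, and Mrto4 lay between 0.46 and 0.76 at 4 h, 0.81 and 1.14 at 8 h, and 0.78 and 1.19 at 24 h. Of the exonic bases of Noc2l, 598 of 2867 are shared with Samd11 on the opposite strand.

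The 3 abundant nucleolar proteins were called higher at every hour, with medians of 0.68, 1.03, and 1.19. Ncl (chr1:86344719-86359400, minus strand) encodes nucleolin, a binder of precursor RNA. The 4 h libraries held 1075, 1113 and 1118 CPM of Ncl with vehicle and 1706, 1763 and 1810 with FGF6. In the 8 h libraries Ncl was at 916, 894 and 894 CPM with vehicle and 1840, 1811 and 1878 with FGF6. In the 24 h libraries Ncl was at 803, 817 and 818 CPM and 1860, 1887 and 1772, in the same order. FGF6 levels were nearly flat and vehicle levels fell. The Ncl log2 fold change was 0.68 ± 0.028 at 4 h, 1.03 ± 0.028 at 8 h and 1.18 ± 0.028 at 24 h (SE, edgeR, largest adjusted p = 6.97e-17). Npm1 (chr11:33152287-33163206, minus strand) encodes nucleophosmin, a scaffold of the outer nucleolus. For Npm1, vehicle gave 272, 284 and 296 CPM and FGF6 425, 435 and 442 at 4 h. With vehicle and FGF6, Npm1 at 8 h was at 289.8, 279 and 287 CPM and 527, 550.5 and 536. At 24 h, Npm1 was at 272, 254 and 262 CPM with vehicle and 607, 609.7 and 578 with FGF6. It was the reverse of most members in that the FGF6 values were higher at each later hour while vehicle values changed far less. Npm1 rose by log2 values of 0.61 ± 0.035 at 4 h, 0.91 ± 0.035 at 8 h and 1.19 ± 0.035 at 24 h (SE, edgeR, largest adjusted p = 6.58e-14). Ddx21 (chr10:62580251-62602281, minus strand) encodes a helicase that links Pol I transcription to processing. Ddx21 was at 402, 411 and 406 CPM in the vehicle libraries and 701, 692 and 720.4 in the FGF6 libraries at 4 h. At 8 h Ddx21 stood at 309, 297 and 292 CPM with vehicle and 725, 736 and 737 with FGF6. By 24 h the Ddx21 values were 249, 245 and 247 CPM with vehicle and 596, 582 and 557 with FGF6. Vehicle and FGF6 libraries were far apart at each hour. For Ddx21 they amounted to log2 differences of 0.79 ± 0.03 at 4 h, 1.29 ± 0.03 at 8 h and 1.23 ± 0.031 at 24 h (SE, edgeR, largest adjusted p = 1.63e-17).

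The effect of FGF6 grew from 4 to 8 h and then diverged between members. The difference of the effects (8 h minus 4 h, an interaction in the same fit) was called positive for 41 members and negative for 0, against 15.5% and 15.1% of all genes, with a median of 0.41 on the log2 scale. The 5 not called were Polr1c, Ubtf, Fbl, Imp4, and Ddx10. The largest was that of Rrs1, at 0.78 ± 0.094 (SE, edgeR, adjusted p = 6.01e-07), followed by Rrp12 at 0.63 ± 0.058, Ppan at 0.60 ± 0.057, and Nhp2 at 0.56 ± 0.058 (largest adjusted p of these 3 = 5.48e-08). From 8 to 24 h the effect was called larger for 6 members and smaller for 22, with 18 not called, where 22.6% and 22.5% of all genes were called. The 6 were Polr1a, Nhp2, Wdr75, Ddx10, Ncl, and Npm1. Among the 22, Imp3 changed by -0.62 ± 0.073 (adjusted p = 1.61e-07), Rrp9 by -0.49 ± 0.08 (adjusted p = 1.6e-05), and Rrs1 by -0.46 ± 0.097 (adjusted p = 0.00036). Between 4 and 24 h the effect was larger at 24 h for 34 members and smaller for 1, against 28.3% and 25.2% of all genes. Nhp2 gained most, at 0.84 ± 0.058, followed by Npm1 at 0.58 ± 0.049 and Polr1a at 0.57 ± 0.042, and Imp3 was the 1 that lost, at -0.24 ± 0.073 (adjusted p = 0.00776). The largest estimate was that of 8 h in 33 members, of 24 h in 13, and of 4 h in 0. For the 18 not called between 8 and 24 h, the order of those hours is uncertain, and the share of all genes was not counted. Any pair of the differences between hours shares the libraries of 1 hour, and that of 24 h minus 4 h is the sum of the others. The differences are therefore not separate evidence. Without vehicle replicate 3 at 24 h the counts were 6 and 20 for 24 h minus 8 h and 33 and 1 for 24 h minus 4 h.

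Each interaction is the change with FGF6 minus the change with vehicle, so each arm was also followed over time. A change within an arm compares libraries of different hours and has no control of the same hour. With vehicle, 43 of 46 members fell from 4 to 8 h and 0 rose (edgeR), against 21.7% and 21.2% of all genes, with a median log2 change of -0.41. The exceptions were Polr1c, Fbl, and Npm1. With FGF6, 8 rose and 15 fell over the same interval, against 24.1% and 24.0% of all genes, and the median was -0.026. The change with vehicle exceeded that with FGF6 in absolute size in 44 members, and the share of all genes that did so was not counted. The split of calls with FGF6 turned with the scaling, to 17 higher and 8 lower with library sizes alone, where shares of all genes were not counted. Rrs1 serves as an example, at -0.84 ± 0.07 with vehicle (adjusted p = 4.54e-10) and -0.053 ± 0.063 with FGF6 (adjusted p = 0.526). Npm1 went the other way, at 0.006 ± 0.035 with vehicle (adjusted p = 0.911) and 0.31 ± 0.035 with FGF6 (adjusted p = 4.37e-08). From 8 to 24 h both arms declined, with 2 higher and 32 lower with vehicle (25.5% and 23.7% of all genes) and 4 higher and 38 lower with FGF6 (31.1% and 31.2%). The median changes of the members were -0.17 and -0.31, where those of all genes were 0.0038 and -0.0096. Polr1c and Imp3 were the 2 higher with vehicle, and Polr1c, Nhp2, Ddx10, and Npm1 the 4 higher with FGF6. Without vehicle replicate 3 at 24 h the vehicle counts were 3 higher and 30 lower. With at least 1.5-fold required, 6 members fell from 4 to 8 h with vehicle, 4 fell from 8 to 24 h with FGF6, and 0 changed in the other intervals. Shares of all genes at 1.5-fold were not counted for these intervals.

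**Figure D4:**
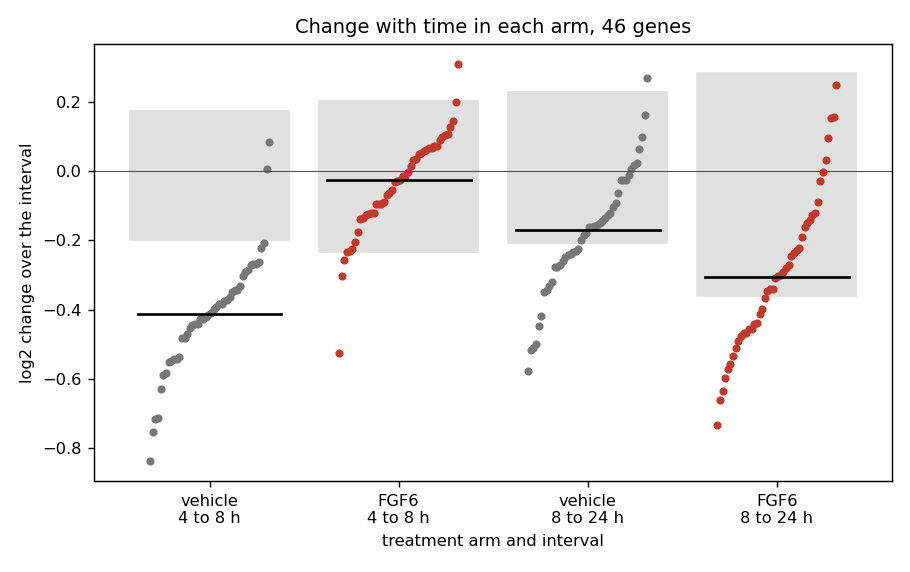
Log2 change of each of the 46 genes (points, ordered by size) over 2 intervals in each treatment arm, with the median of the members (black line) and the middle 50% of all genes tested (gray). From 4 to 8 h nearly all vehicle points lie below 0 (median -0.41) and the FGF6 points straddle it (median -0.026).

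Most other genes of the pathway were also called higher. Of 120 further genes of Pol I, snoRNP assembly, subunit assembly, and the RNA exosome, 110 were called higher and 3 lower at 4 h, 112 and 4 at 8 h, and 107 and 3 at 24 h (edgeR), where 28.6%, 32.4%, and 35.9% of all genes were higher and 34.2%, 38.4%, and 37.9% lower. Their median log2 fold changes were 0.52, 0.69, and 0.60, and whether they differ from those of the 46 was not tested. The highest and lowest gene of each list are named by the mean of their log2 fold changes over the 3 hours. Of 15 further genes of the Pol I machinery, 11, 10, and 9 were higher and 1, 2, and 1 lower. This list is not particular to Pol I. It includes Polr1d, shared with Pol III, and Polr2e, Polr2f, Polr2h, Polr2k, and Polr2l, subunits common to all these RNA polymerases. Twistnb, a stalk subunit, was highest (0.78, 0.99, and 0.81), and Znrd1, a small subunit of the polymerase, lowest (-0.21, -0.33, and -0.13). Of 39 further small subunit factors, 36, 38, and 38 were higher and 1 lower each time. There Tsr1, a late 40S factor, had the highest mean (0.83, 1.30, and 1.18, mean 1.106) by a small margin over Pwp2 (mean 1.102), and other genes were above Tsr1 at each single hour, while Rrp36 had the lowest mean (0.10, 0.16, and -0.23). Of 45 further large subunit factors, 44, 44, and 40 were higher and 0, 0, and 1 lower. Mak16 had the highest mean (1.06, 1.32, and 1.32), and the helicase gene Ddx24 turned from 0.37 and 0.19 to -0.68 at 24 h (difference of 24 h minus 4 h -1.05, edgeR, adjusted p = 2.15e-13). Of 10 further snoRNP assembly genes, 9 were higher at each hour, with the highest mean for Naf1, an H/ACA assembly factor (0.97, 1.16, and 0.88). Pih1d1, a subunit of the chaperone complex that builds these particles, was lower at 4 and 8 h (-0.34 and -0.30) and not called at 24 h (-0.038, adjusted p = 0.409). Of 11 exosome genes, which trim and degrade precursor RNA, 10, 11, and 11 were higher, with the highest mean for Exosc1 (0.66, 1.00, and 1.06). The lowest mean was that of Exosc10 (0.12, 0.29, and 0.29, mean 0.2329), all but equal to that of Exosc8 (mean 0.233). The 1 not called at 4 h was Exosc8, at -0.052 (adjusted p = 0.361), which was called higher at 0.11 and 0.64 at 8 and 24 h.

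**Figure D5:**
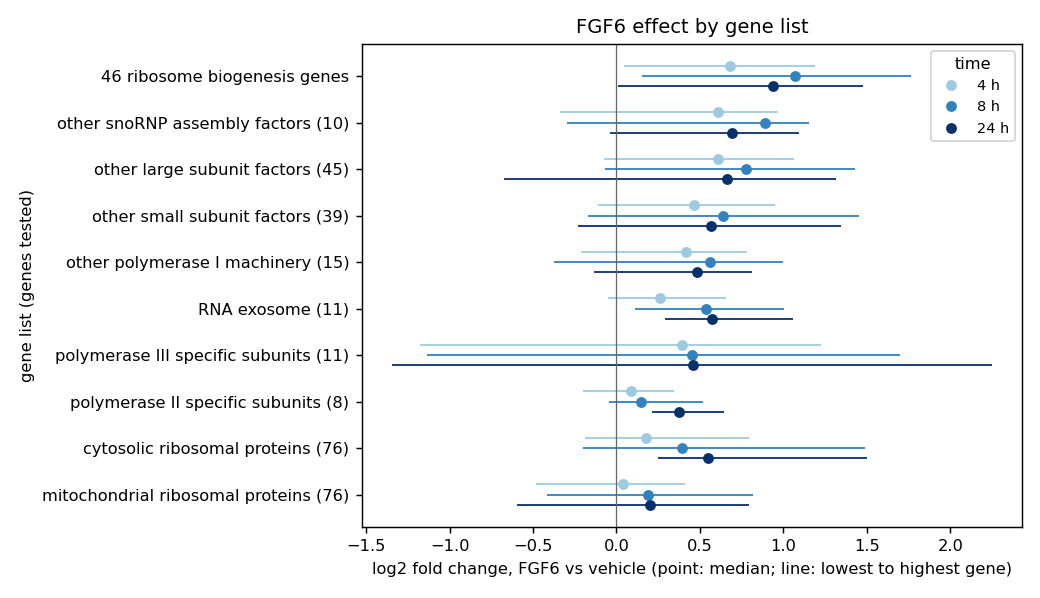
Log2 fold change of FGF6 against vehicle for the 46 members and 9 further gene lists, with the median as a point and the lowest and highest gene as the ends of each line, in 3 shades for 4, 8, and 24 h. The members have the highest medians (0.68, 1.07, and 0.94), and the polymerase III list spans the widest range, from -1.35 to 2.25 at 24 h.

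Myc, which encodes a transcription factor known to activate this pathway, was measured in the same libraries. It was at 77.9 ± 3.91 CPM with vehicle and 319 ± 9.15 with FGF6 at 4 h, 48.1 ± 4.51 and 238 ± 10.1 at 8 h, and 50.4 ± 3.41 and 169 ± 5.74 at 24 h (SD, n = 3). The groups did not overlap at any hour. The log2 fold change of Myc was 2.03 ± 0.053, 2.31 ± 0.055, and 1.74 ± 0.055 (SE, edgeR, adjusted p of 9.36e-21, 6.17e-22, and 1.26e-19). Its effect was larger at 8 than at 4 h by 0.28 ± 0.075 (adjusted p = 0.00614) and changed from 8 to 24 h by -0.57 ± 0.077 (adjusted p = 1.22e-06). Whether the change in Myc bears on the 46 genes was not tested.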

How the data were processed

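RNA of brown preadipocytes was sequenced in 18 libraries (3 in each of 6 groups). The authors used STAR for alignment to GRCm38 and featureCounts of Subread for assignment to GENCODE genes, and they deposited raw counts per gene without normalization. Versions, strand setting, and the handling of reads that fit several genes are not given in the sources used here. Groups, hours, and replicate numbers were taken from the labels. The dose came from the description of the study's data. Genes were named and located with GENCODE annotation (98.3% of identifiers matched).

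Genes were kept by edgeR's filterByExpr (15071 of 48023, of which 19409 had no count). edgeR 4.0.16 in R 4.3.3 fitted a quasi-likelihood model with TMM factors (0.951 to 1.05) to the 6 group means, without covariates. P-values were Benjamini-Hochberg adjusted over all genes tested and called below 0.05, with the study's threshold of 0.25 as an alternative. Standard errors are those implied by the F statistic. CPM (counts per 1000000) is the count scaled to the TMM-adjusted total of the genes kept, and RPKM is CPM per kilobase of annotated exon. The floor of 3 counts stood for 0.0905 to 0.126 CPM, which covers counting error only, and all members lay far above it.

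The members and lists were chosen with earlier results of these data known. Members named with all their values were the highest and lowest of each role by mean fold change, the 3 with the most positive and the 3 with the most negative difference between 24 and 4 h, and Polr1a, Polr1b, Ubtf, Fbl, Ncl, and Npm1. The highest and lowest gene of each further list and Myc were also named. Other members, the markers, Pwp2, and Exosc8 were named after their values were seen. On simulated counts for FGF6 against vehicle at 24 h (14682 genes), the fit called 69.7% of genes changed by 0.5 and 81% of those changed by 1 on the log2 scale, and 10 of 14483 unchanged genes. That simulation changed only 99 and 100 of the genes tested, about equally up and down. In the data themselves 35.9% of genes were called higher and 37.9% lower at 24 h, so these rates may not carry over. Replicates of a group differed by more than counting noise (chi-square per degree of freedom of 2.44 to 7.66, and 38.1 and 41.5 for the pairs with vehicle replicate 3 at 24 h), so none was counted as a duplicate. Alternatives were limma 3.58.1 with voom, DESeq2 1.42.0, other scalings, filters, and thresholds, a fit to the compared groups alone, an offset for GC content and length, the replicate number as a block, and leaving out each library. The genes Riok2 and Exosc6 were not analysed here.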

Additional observations from a re-analysis of the deposited data

Results flagged for a closer look

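The effect of FGF6 differed between hours by the interaction test itself (edgeR, adjusted p below 0.05) for the counts of members given before, namely 41 with a larger effect at 8 than at 4 h, 6 with a larger and 22 with a smaller one at 24 than at 8 h, and 34 with a larger and 1 with a smaller one at 24 than at 4 h. Among the 15 members named with all their values, the difference of 8 h minus 4 h on the log2 scale was 0.40 for Polr1a, 0.41 for Polr1b, 0.56 for Nhp2, 0.53 for Dkc1, 0.18 for Utp15, 0.51 for Rrp9, 0.38 for Imp3, 0.21 for Nop14, 0.30 for Pes1, 0.78 for Rrs1, 0.36 for Ncl, 0.30 for Npm1, and 0.50 for Ddx21. The difference of 24 h minus 8 h was 0.17 for Polr1a, -0.34 for Polr1b, -0.14 for Ubtf, 0.28 for Nhp2, -0.28 for Utp15, -0.49 for Rrp9, -0.62 for Imp3, -0.32 for Nop14, -0.46 for Rrs1, 0.15 for Ncl, and 0.27 for Npm1. The difference of 24 h minus 4 h was 0.57 for Polr1a, 0.84 for Nhp2, 0.44 for Dkc1, -0.24 for Imp3, 0.27 for Pes1, 0.32 for Rrs1, 0.50 for Ncl, 0.58 for Npm1, and 0.43 for Ddx21. The largest adjusted p among these was 0.0176, for Utp15 at 8 h minus 4 h. No test for a single outlying value was run within groups of 3 libraries.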

How the results depend on the processing

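Of the member counts for FGF6 against vehicle, 33 to 46 were called higher at 4 h, 44 to 46 at 8 h, and 42 to 46 at 24 h under the 11 alternatives, and 0 lower in any. Shares of all genes were counted for the main fit and, for FGF6 against vehicle, at 1.5-fold, but under no other setting. Replicate numbers did not pair the libraries (correlations of same-numbered deviations from -0.165 to 0.139), and with the replicate number as a block the counts higher were 45, 46, and 45, with no call count moved.

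The median log2 fold change of the members moved by more than the spread between replicates (0.023, 0.013, and 0.049 at 4, 8, and 24 h) under several settings. At 4 and 8 h it was 0.71 and 1.11 with DESeq2, 0.58 and 1.00 with library sizes alone, 0.62 and 1.02 with upper-quartile factors, 0.71 and 1.09 with at least 10 counts in every library, 0.72 and 1.10 with only the groups compared, and 0.74 and 1.14 with the offset for GC content and length, which gave 1.03 at 24 h. Library sizes alone took the median of all genes to -0.15 at 4 h and -0.11 at 8 h. Leaving out 1 library gave medians of 0.67 to 0.72, 1.05 to 1.11, and 0.92 to 1.00.

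The counts over time moved more, and shares of all genes under these settings were not counted. With library sizes alone, the 24 h minus 8 h effect was smaller for 14 members and the 24 h minus 4 h effect for 0, 1 member was higher with vehicle in each interval, and 17 were higher and 8 lower with FGF6 from 4 to 8 h. Requiring 1.5-fold left 3 with a larger effect at 8 than at 4 h, 0 larger and 1 smaller at 24 than at 8 h, 1 larger and 0 smaller at 24 than at 4 h, 6 lower with vehicle from 4 to 8 h, 0 higher and 0 lower with vehicle from 8 to 24 h, 0 and 0 with FGF6 from 4 to 8 h, and 0 higher and 4 lower with FGF6 from 8 to 24 h. The effect at 24 h minus 4 h was smaller for 3 members with at least 10 counts, with the threshold of 0.25, and with the GC and length offset. With that offset 3 had a larger effect at 24 than at 8 h and 1 was higher with FGF6 from 8 to 24 h, where no filter gave 2. At 0.25, 1 was higher with vehicle from 4 to 8 h. Leaving out 1 library gave 0 to 1 higher with vehicle from 4 to 8 h (1 without vehicle 4 h replicate 3), 5 to 8 higher with FGF6 from 4 to 8 h (5 without FGF6 4 h replicate 1, 8 h replicate 2, or 8 h replicate 3), and 0 to 1 smaller at 24 than at 4 h (0 without FGF6 4 h replicate 2).

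Ubtf changed sign, to -0.054 with library sizes alone and -0.00911 with upper-quartile factors at 4 h, and to -0.00714 with upper-quartile factors, -0.000681 without a filter, and -0.00633 with at least 10 counts at 24 h. It was called higher at 4 h with DESeq2, at least 10 counts, only the groups compared, the GC and length offset, and without FGF6 replicate 1, and at 24 h with the offset (0.11, adjusted p = 0.00266). The other 14 members named with all their values kept direction and call at each hour, except with 1.5-fold required, where Polr1a (1.22-fold) and Pes1 (1.31-fold) at 4 h and Nop14 (1.41-fold) at 24 h were no longer called, nor was Ubtf at 8 h (1.11-fold). Ubtf at 4 h was called at the threshold of 0.25. Beyond the definition of each setting, the cause was not tested. The limits are 3 libraries a group of unstated origin, 1 cell line, no group before treatment, and read assignment without stated strand or multiple-mapping rules. Relative abundance cannot show a change in total RNA.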

Other observations

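The other polymerases and the ribosomal proteins were measured in the same fit. Of 8 subunits specific to RNA polymerase II, 4, 6, and 8 were called higher at 4, 8, and 24 h and 1, 0, and 0 lower, with median log2 fold changes of 0.088, 0.15, and 0.38 (edgeR). Of 11 subunits specific to RNA polymerase III, which makes the small ribosomal RNA and the transfer RNAs, 8, 8, and 10 were higher and 1 lower each time, with medians of 0.39, 0.45, and 0.46. The paralogs Polr3g and Polr3gl, whose products take the same place in the enzyme, went opposite ways. Polr3g was at 10.7 ± 0.53, 6.73 ± 0.38, and 7.98 ± 0.39 CPM with vehicle and 25.1 ± 1.39, 21.8 ± 1.98, and 37.9 ± 1.22 with FGF6 (SD, n = 3), log2 fold changes of 1.23, 1.70, and 2.25 (edgeR, largest adjusted p = 6.32e-14). Polr3gl was at 8.86 ± 0.80, 11.7 ± 0.44, and 17.5 ± 2.06 CPM with vehicle and 3.90 ± 0.47, 5.39 ± 0.81, and 6.89 ± 0.22 with FGF6, log2 fold changes of -1.17, -1.13, and -1.35 (edgeR, largest adjusted p = 3.44e-09).

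Of 76 cytosolic ribosomal protein genes, 52, 73, and 75 were called higher and 0 lower, with medians of 0.17, 0.39, and 0.55, against 0.68, 1.07, and 0.94 for the 46 biogenesis genes. Of 76 mitochondrial ribosomal protein genes tested, 31, 47, and 47 were higher and 15, 8, and 5 lower, with medians of 0.040, 0.19, and 0.20. Whether these lists differ from the 46 genes was not tested.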
